A study of Mus musculus with 4 samples.

Results

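The genes described here are 10 negative feedback regulators of MAP kinase signalling, chosen by symbol: the dual-specificity phosphatases Dusp1, Dusp2, Dusp4, Dusp5, Dusp6 and Dusp10, the Sprouty genes Spry1 and Spry2, and the Sprouty-related genes Spred1 and Spred2. All 10 were among the 24497 features of the expression table, and 9 of them were among the 11866 features expressed highly enough to be tested. Dusp4 was the member left untested. Poly(A) RNA had been sequenced from spleen cells, enriched for CD45.2, of a mouse model of acute myeloid leukaemia driven by MLL-AF9, a fusion of the MLL gene with AF9. Recipients in both groups had been irradiated at 320 rads, below a lethal dose, and had received CD45.2+ leukaemic bone marrow cells of primary MLL-AF9 mice. From a week after transplantation they were given PBS as the control, or CS1 at 5 mg/kg intraperitoneally, named in the labels as inhibiting FTO, an enzyme that removes methyl groups from RNA, every second day for 20 days. There were 2 libraries in each group, and the labels do not say whether these came from separate mice. The strain, age and sex of the mice and the promoter driving the fusion gene are not given in these sources. Irradiated recipients keep blood cells of their own, and the cells were selected on CD45.2 with antibody and magnetic beads. One label of CS1 replicate 2 names its treatment CS2, whereas title and description give CS1, by which it was grouped.

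MAP kinase cascades carry signals from growth factor and cytokine receptors through RAS, RAF and MEK to ERK, and from stress and inflammatory stimuli to p38 and JNK. Dual-specificity phosphatases of this group remove the activating phosphates from both the threonine and the tyrosine of a MAP kinase. Sprouty proteins restrain receptor tyrosine kinase signalling between the receptor and RAF, and SPRED proteins bring the RAS inactivator neurofibromin to the membrane. Many of these genes are themselves switched on by MAP kinase activity, so their transcripts form negative feedback loops, and mutations that activate RAS signalling are common in myeloid leukaemia.

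Of the 9 tested members, 4 were higher in CS1 (Dusp1, Dusp2, Spry1 and Spry2), 4 were lower (Dusp5, Dusp6, Spred1 and Spred2) and Dusp10 did not pass the test. A feature was called at an adjusted p under 0.05 in limma, a linear model with a spread shared across features. Changes were widespread: 67.0% of all tested features were called, 35.3% higher and 31.6% lower in CS1, so a count of 8 called among 9 is not far from the background. The 2 groups did not overlap for 8 of the 9, against 84.4% of all tested features. The median log2 fold change of the 9 was 0.12, against 0.04 over all tested features, and 2 of the 9 had a log2 fold change of 1 or more in size, against 7.71% of all tested features. Spry1 is in each of these counts, is 1 of the 2 with the larger changes, and enters the median. It passed the filter on low values only through its CS1 libraries and had to differ, so it supports none of them. Without Spry1 the median would lie between the values of Spred1 (-0.29) and Dusp10 (0.12), so its sign is not settled. Of the other members called, Spry2 was higher, both SPRED genes were lower, and the phosphatases went in both directions.

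Upstream sequences are shown for the phosphatase genes among the 10 that moved most in either direction or carry the best-known control elements of immediate early genes. RefSeq promoter windows on GRCm38.p6, from 250 bases before to 50 bases after a gene's start, were found for 9 members, and the 200 bases before the start are printed 5′ to 3′ on the gene's own strand for 4 of them. These are chr17:26508473-26508672 (minus strand), chr2:127335959-127336158 (plus), chr19:53528945-53529144 (plus) and chr10:99263031-99263230 (plus). Starts here are those of RefSeq, and they can differ from the ends of the GENCODE gene spans given below. The Dusp1 stretch lies within its GENCODE span, and the Dusp5 stretch runs past its GENCODE start. Capitals mark matches to the motifs searched.
Dusp1: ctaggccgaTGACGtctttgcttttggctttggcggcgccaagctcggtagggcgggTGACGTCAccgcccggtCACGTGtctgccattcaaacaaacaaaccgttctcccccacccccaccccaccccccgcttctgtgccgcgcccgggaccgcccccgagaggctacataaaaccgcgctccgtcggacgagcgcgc
Dusp2: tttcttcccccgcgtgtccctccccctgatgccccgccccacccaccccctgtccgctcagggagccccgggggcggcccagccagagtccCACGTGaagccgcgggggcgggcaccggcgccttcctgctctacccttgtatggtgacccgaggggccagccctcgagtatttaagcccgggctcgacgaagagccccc
Dusp5: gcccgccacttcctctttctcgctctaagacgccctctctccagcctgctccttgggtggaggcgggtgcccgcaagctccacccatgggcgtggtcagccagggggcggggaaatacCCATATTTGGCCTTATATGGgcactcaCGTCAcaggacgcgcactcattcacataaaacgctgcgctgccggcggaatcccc
Dusp6: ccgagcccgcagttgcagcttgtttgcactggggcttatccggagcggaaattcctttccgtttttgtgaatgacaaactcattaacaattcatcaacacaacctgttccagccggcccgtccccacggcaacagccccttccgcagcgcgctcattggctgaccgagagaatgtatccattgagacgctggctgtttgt

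The 7 motifs were searched on both strands. They were the cAMP response element TGACGTCA and its half-site TGACG, the AP-1 site TGANTCA, the ETS core CCGGAA, the SRF CArG box, the TATA box TATAAA and the E-box of MYC and MAX, CACGTG. The full cAMP response element was matched in 1 of the 9 members, Dusp1, against 1.79% of 32851 promoter windows of the same length. Its half-site, which is contained in the full element and is counted again there, was matched in Dusp1, Dusp2, Dusp5 and Spred2, against 20.8% of windows. CArG boxes, the sites bound by serum response factor, were matched side by side in Dusp5, starting 82 and 72 bases before the start, and 1.63% of windows held at least 1. The E-box was matched in Dusp1 and Dusp2, against 7.15% of windows. The ETS core was matched in Spry2, 34 bases into the transcript, against 14.9% of windows. The AP-1 site and the TATA box were matched in none of the 9, against 7.81% and 13.6% of windows. Only exact letters counted, so near variants of TATAAA were missed. The printed stretches hold such variants, cataaaa in Dusp1 and Dusp5 and tatttaa in Dusp2. The windows of Dusp6, Dusp10, Spry1 and Spred1 held none of these letters. The members' windows held from 57% (Spred2) to 72.3% (Spred1) G and C, against a median of 52.7% over all windows. The shares of windows matched were not adjusted for this composition. A match describes the sequence and is not evidence of binding.

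**Figure D1:**
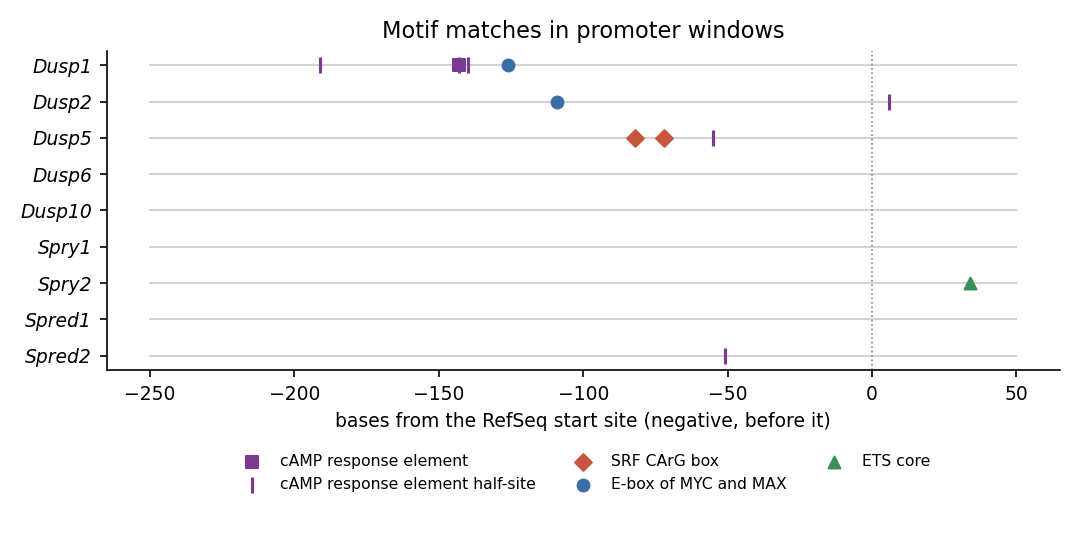
Positions of motif matches in the promoter windows of 9 members, with bases from the RefSeq start site on the horizontal axis and 1 line per gene; each marker stands at the leftmost base of a match. Dusp1 holds the full cAMP response element 143 bases before its start, and Dusp5 holds 2 CArG boxes.

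The members spanned a wide range of levels. Values are TPM, a transcript share corrected for length, so that levels of different genes can be compared. In PBS the order of mean levels was Dusp1 (971 TPM), Dusp6 (101), Spred1 (18.0), Dusp2 (14.5), Spry2 (13.6), Dusp5 (13.4), Spred2 (11.2), Dusp10 (4.13), Dusp4 (0.495) and Spry1 (0.255). Dusp2 overlapped with Spry2 and Spry2 with Dusp5, and each other pair of neighbours in that order was separated. In CS1 Dusp1 (1256 TPM) and Dusp6 (51.7) still came first, but Dusp2 (35.7) and Spry2 (26.2) stood above Spred1 (14.6), Dusp5 (8.23) and Spred2 (6.48), and no neighbours overlapped. Dusp1 alone made up 84.5% and 84.7% of the members' summed TPM in the PBS libraries and 89.5% and 89.2% in the CS1 libraries. The members' sum was 1137 and 1158 TPM in PBS and 1420 and 1392 TPM in CS1. Without Dusp1 it moved the other way, from 176.0 and 177.1 TPM to 149.4 and 150.9 TPM.

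**Figure D2:**
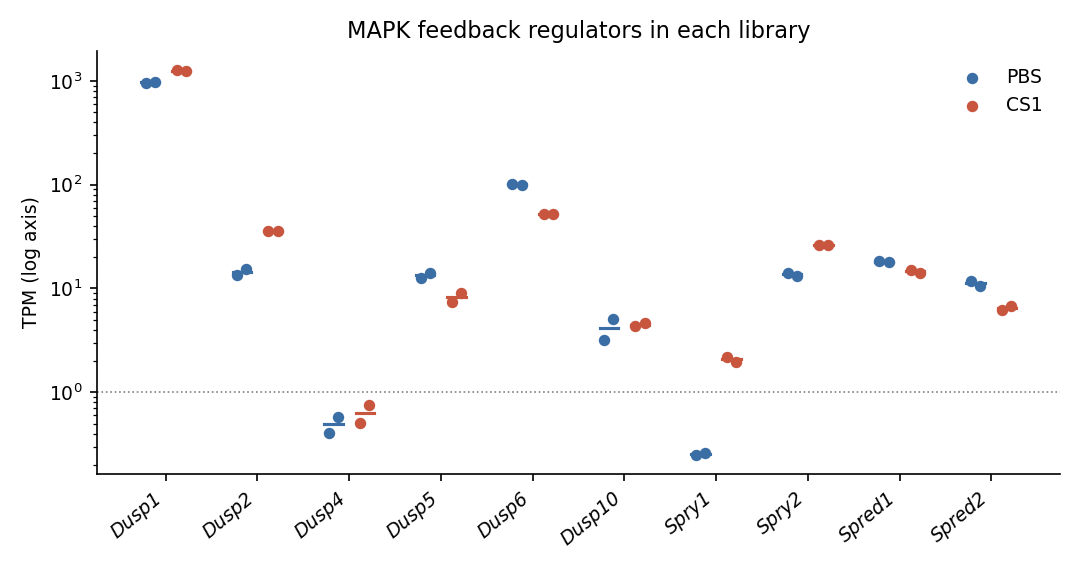
TPM of the 10 members on a log axis in each library, with PBS in blue, CS1 in red, points for libraries and short lines for the group means of 2 libraries; the dotted line is 1 TPM. Dusp1 and Dusp6 lead in both groups, Dusp2, Spry1 and Spry2 sit higher in CS1, and Dusp5, Dusp6 and Spred2 sit lower.

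Among the nuclear, inducible phosphatases, Dusp1 and Dusp2 rose and Dusp5 fell. Dusp1 (ENSMUSG00000024190, chromosome 17, 26505590 to 26562128 on GRCm38, minus strand), an immediate early gene whose product inactivates p38 and JNK as well as ERK, was measured at 961 and 981 TPM in PBS and at 1271 and 1241 TPM in CS1. Both CS1 libraries were above both PBS libraries. The means were 971 ± 14.5 and 1256 ± 20.6 TPM (SD, n = 2 each), a ratio of 1.29, and the log2 fold change was 0.37 ± 0.02 (SE; limma adjusted p = 5.09e-05). Although it is the most abundant member, its change was the smallest among the members called higher. Annotated exons of Dusp1 share 11 of 3311 bases with Ergic1, which lies on the opposite strand and was listed at 52.9 to 59.4 TPM.

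Dusp2 (chromosome 2, 127336159 to 127338376, plus strand), a phosphatase found mainly in blood and immune cells, was measured at 13.5 and 15.5 TPM in PBS and at 36.0 and 35.4 TPM in CS1. The CS1 libraries lay close together and well above PBS. The ratio of means was 2.46 and the log2 fold change 1.25 ± 0.07 (SE, adjusted p = 4.77e-05). T cells also express Dusp2. Of 5 tested T cell markers 3 fell, Cd3d and Cd3g did not pass, and the list's summed level was 30.4 to 34.4 TPM in PBS and 20.6 to 21.9 TPM in CS1. Among these markers Cd4 and Cd8a were at most 1.07 TPM in each library, and the part of T cells in the difference of Dusp2 was not tested.

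Dusp5 (chromosome 19, 53529109 to 53542431, plus strand), a nuclear phosphatase specific for ERK, was measured at 12.6 and 14.2 TPM in PBS and at 7.48 and 8.98 TPM in CS1. The groups did not overlap, and the mean was 1.63-fold lower in CS1, and the log2 fold change was -0.64 ± 0.11 (SE; limma adjusted p = 0.00315). Dusp4, another nuclear phosphatase of the set, was listed at 0.41 and 0.58 TPM in PBS and at 0.51 and 0.75 TPM in CS1. The groups overlapped, all 4 values lay under 1 TPM, and Dusp4 was not tested. In each library the level of Dusp2 over that of Dusp5 can be read without regard to scaling: it was 1.08 and 1.09 in PBS and 4.81 and 3.94 in CS1.

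The cytoplasmic, ERK-specific phosphatase Dusp6 showed the smallest p of all members. Dusp6 (chromosome 10, 99263231 to 99267489, plus strand), whose transcript is widely used as a readout of ERK activity, was measured at 102 and 99.8 TPM in PBS and at 51.7 TPM in both CS1 libraries. The spread within groups was far smaller than the distance between them: means were 101 ± 1.51 and 51.7 ± 0.0283 TPM (SD, n = 2 each). The mean was 1.95-fold lower in CS1, and the log2 fold change was -0.95 ± 0.03 (SE, adjusted p = 6.82e-06). Within a library, Dusp1 stood at 9.42 and 9.83 times the level of Dusp6 in PBS and at 24.59 and 24.01 times that level in CS1. Ratios between members were chosen after the values were seen and are descriptions.

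Dusp7, a relative of Dusp6 in the cytoplasm, fell. It was measured at 62.5 and 57.4 TPM in PBS and at 45.9 and 47.3 TPM in CS1 (log2 fold change -0.36 ± 0.05, SE, adjusted p = 0.00145). Dusp9, another relative, was at 0.73 and 0.61 TPM in PBS and at 1.90 and 1.81 TPM in CS1 (0.77 ± 0.14, adjusted p = 0.00378), and it entered the test only through the CS1 libraries. Dusp9 was therefore bound to be the higher in CS1 and adds nothing to a count.

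Of the phosphatases that prefer p38 and JNK, Dusp10 showed no clear difference and Dusp16 fell. Dusp10 (chromosome 1, 184013302 to 184075636, plus strand) was measured at 3.20 and 5.07 TPM in PBS and at 4.32 and 4.63 TPM in CS1. Both CS1 values lay between the PBS values, and the log2 fold change of 0.12 had a 95% interval from -0.34 to 0.58 (adjusted p = 0.604), which leaves room for a moderate change either way. Its direction turned after quantile normalization (-0.11) and without PBS replicate 1 (-0.15). Dusp16, which is outside the 10 genes, was at 28.2 and 26.5 TPM in PBS and at 8.89 and 8.31 TPM in CS1, a 3.17-fold lower mean and a log2 fold change of -1.56 with SE 0.07 (adjusted p = 1.81e-05). Dusp8, the remaining phosphatase of that class, was listed at 0.04 TPM or less in every library.

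**Figure D3:**
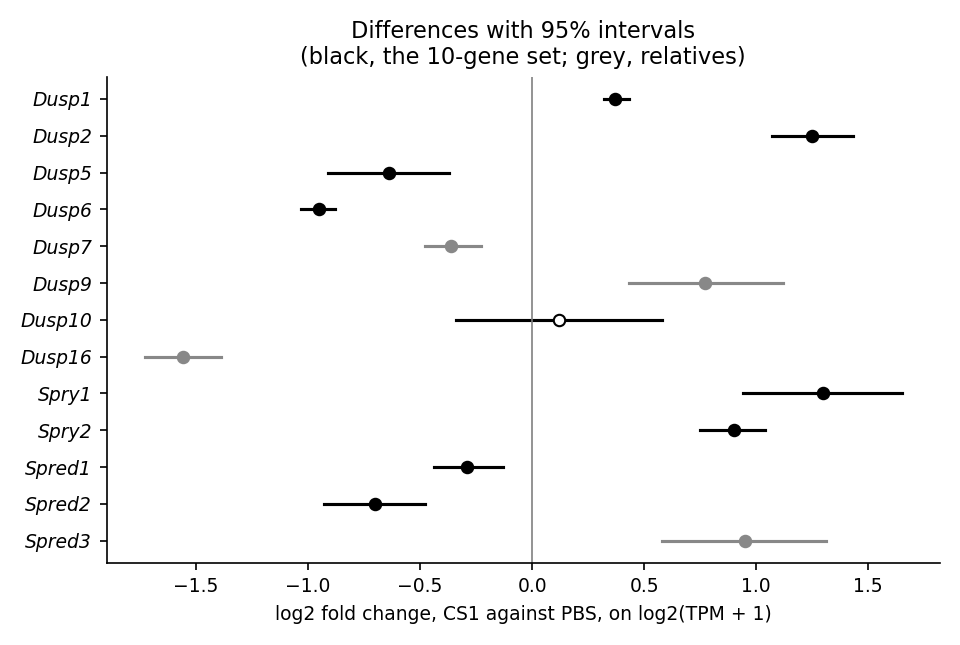
Log2 fold changes of CS1 against PBS on the log2(TPM + 1) scale with 95% intervals, for the 9 tested members (black) and their tested relatives (grey); the open circle did not pass the test. Intervals of Dusp5, Dusp6, Dusp7, Dusp16, Spred1 and Spred2 lie below 0 and those of Dusp1, Dusp2, Dusp9, Spry1, Spry2 and Spred3 above it.

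Of the Sprouty members, Spry2 rose. Spry2 (chromosome 14, 105891947 to 105896819, minus strand), the better expressed of the pair, was measured at 14.0 and 13.2 TPM in PBS and at 26.0 and 26.5 TPM in CS1. The groups were well apart, with a ratio of 1.92, and the log2 fold change was 0.90 ± 0.06 (SE; limma adjusted p = 6.90e-05). Spry1 (chromosome 3, 37639947 to 37644598, plus strand) was at 0.25 and 0.26 TPM in PBS and at 2.21 and 1.96 TPM in CS1. It entered the test only because both CS1 libraries were above 1 TPM, so it had to differ. Its ratio of means was 8.18, while the log2 fold change was 1.30 ± 0.14 (SE, adjusted p = 0.000539). That log2 fold change became 2.62 with a pseudocount of 0.1, since adding 1 to low values compresses the change. After quantile normalization it was 0.93. Spry1 is also known from endothelium and stroma. Of the markers for those cells, Cdh5, Kdr, Col1a1 and Col3a1 were at most 0.31 TPM in each library, and the summed level of the 6 was 46.2 to 47.8 TPM in PBS and 38.5 to 41.0 TPM in CS1, most of it from Pecam1, which myeloid cells also express. Pdgfrb was at 2.31 and 2.59 TPM in PBS and at 3.18 and 2.42 TPM in CS1, not past the test (adjusted p = 0.447). Of the 2 tested markers on that list 1 was lower, and their part in the difference of Spry1 was not tested. Spry4 was at most 0.12 TPM in each library.

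Both SPRED members fell. Spred2 (chromosome 11, 19924375 to 20024026, plus strand) was measured at 11.8 and 10.6 TPM in PBS and at 6.20 and 6.77 TPM in CS1. The groups did not overlap, the mean was 1.73-fold lower in CS1, and the log2 fold change was -0.70 ± 0.09 (SE, adjusted p = 0.00102). Spred1 (chromosome 2, 117121374 to 117182279, plus strand), whose loss in people causes a developmental syndrome of overactive RAS signalling, was at 18.3 and 17.8 TPM in PBS and at 15.0 and 14.2 TPM in CS1. This was the smallest called change among the 10 genes, at -0.29 ± 0.06 on the log2 scale (SE; limma adjusted p = 0.00822). The adjusted p stayed just under the threshold without CS1 replicate 2 (0.0488) and without PBS replicate 1 (0.0482). Spred3, the third gene of the family, went from 0.67 and 0.62 TPM to 2.40 and 1.95 TPM (0.95 ± 0.15, adjusted p = 0.0021). Like Spry1, it was tested only through the CS1 libraries. Its exons share 202 bases with Ggn on the opposite strand, which was listed at 1.28 to 1.62 TPM. The level of Spry2 over that of Spred2 in the same library was 1.19 and 1.24 in PBS and 4.20 and 3.91 in CS1.

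Other brakes on RAS were called in both directions at about the background rate. The list held Sprouty, SPRED, RAS GTPase-activating and adaptor genes outside the 10. Of 13 tested, 4 were higher, 4 were lower and 5 did not pass (median log2 fold change 0.04). Among all tested features 35.3% were higher and 31.6% lower. The 4 higher include Spred3, which was tested only through CS1 and could only be higher. Cbl, a ubiquitin ligase that sends activated receptors to degradation, fell from 146 and 144 TPM to 67.6 and 66.6 TPM (log2 fold change -1.10 ± 0.03, SE, adjusted p = 4.00e-06). The RAS and RAP GTPase-activating genes Rasa3 and Rasal1 had log2 fold changes of -0.45 and 1.26. Rasa3 was at 267 and 261 TPM in PBS and at 195 and 190 TPM in CS1. Rasal1 was near the filter, at 0.65 and 1.09 TPM in PBS and at 3.28 and 3.63 TPM in CS1. Its log2 fold change ran from 0.97 to 1.91 across the alternatives that tested it. Nf1, which encodes neurofibromin, the partner of SPRED proteins, was at 6.37 and 6.08 TPM in PBS and at 6.93 and 6.27 TPM in CS1, not past the test (adjusted p = 0.525). The call of Rasa1 (-0.20) was lost whichever library was left out, with log2 fold changes of -0.22 to -0.19: adjusted p was 0.0765 without PBS replicate 1, 0.0522 without PBS replicate 2, 0.0607 without CS1 replicate 1 and 0.0691 without CS1 replicate 2. Most atypical dual-specificity phosphatases act on substrates other than MAP kinases. Of 9 tested, 1 was higher and 3 were lower, against 35.3% and 31.6% of all tested features. Those that fell were Dusp3, Dusp11 and Dusp12, with log2 fold changes of -0.73, -0.36 and -0.49. The higher one, Dusp28 (0.61), was named after its value was seen. That count of 1 became 0 without PBS replicate 1 or CS1 replicate 2, and 2 without CS1 replicate 1.

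The kinase cascade that these genes restrain was lower in CS1 at most steps. Of 28 tested genes of the RAS-ERK cascade, 21 fell and 2 rose, with a median log2 fold change of -0.26 against 0.04 over all tested features. The fraction lower exceeded the background of 31.6%, and the number that fell was 18 to 22 across the alternatives run. Map2k1, which encodes MEK1, fell from 147 and 148 TPM to 89.4 and 93.3 TPM (log2 fold change -0.68, adjusted p = 2.05e-05). Mknk1, an ERK-activated kinase acting on translation, fell from 130.0 and 128 TPM to 96.9 and 95.2 TPM (-0.42, adjusted p = 7.03e-05). The genes that rose, Araf and Rasgrp2, were named after their values were seen and had changes of only 0.09 and 0.10. That count of 2 became 0 without PBS replicate 1, PBS replicate 2 or CS1 replicate 2 and 1 without CS1 replicate 1.

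In the p38 and JNK cascades 6 of 24 tested genes were higher and 12 lower (median -0.20), against 35.3% and 31.6% of all tested features. Mapk11, 1 of the 12, was tested only through PBS. Mapk13, the gene of p38 delta, was at 25.7 and 26.4 TPM in PBS and at 93.8 and 95.6 TPM in CS1, a ratio of 3.64 (log2 fold change 1.82, adjusted p = 2.60e-06). Mapkapk2, a kinase activated by p38, and Map3k3 had log2 fold changes of -0.32 and -0.35. The number that rose was 3 without PBS replicate 2 and also 3 without CS1 replicate 1.

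Receptors that feed the cascade shifted in both directions, with 6 of 13 tested genes higher and 6 lower, against 35.3% and 31.6% of all tested features. Mertk, 1 of those higher, was tested only through CS1. Flt3, a receptor kinase of progenitors, had a log2 fold change of 1.00, and the cytokine receptor genes Il6ra and Csf1r of -0.84 and -0.74. Csf1r, the receptor for macrophage colony-stimulating factor, was at 508 and 512 TPM in PBS and at 305 TPM in both CS1 libraries; 873 of its exon bases are shared with Hmgxb3 on the opposite strand.

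**Figure D4:**
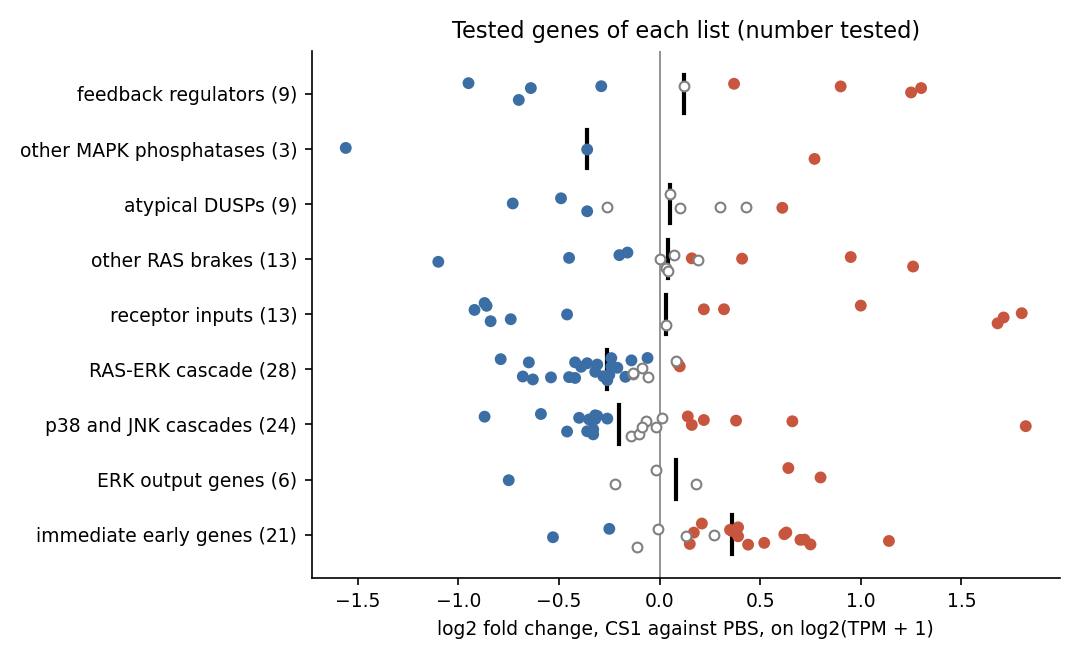
Log2 fold changes of CS1 against PBS, on the log2(TPM + 1) scale, of the tested genes of each list, with the number tested in brackets; filled points passed the test (red higher, blue lower), open points did not, and black bars are medians. The feedback regulators spread to both sides of 0, while 21 of 28 genes of the RAS-ERK cascade are called lower and 15 of 21 immediate early genes higher.

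The listed ERK output genes did not move as a block either. Of 6 tested ERK output genes, 2 rose, 1 fell and 3 did not pass, against 35.3% higher and 31.6% lower among all tested features. Ier3, an early response gene, rose from 19.2 and 23.7 TPM to 40.7 and 35.4 TPM (log2 fold change 0.80, adjusted p = 0.00139). Phlda1 went from 2.40 and 2.97 TPM to 4.35 and 5.09 TPM (0.64, adjusted p = 0.0073), a call that was lost without CS1 replicate 2 (0.54, adjusted p = 0.0503), leaving 1 gene higher. Myc fell, with a log2 fold change of -0.75. Etv5, an ETS factor induced together with Dusp6 in many cells, was at 4.80 and 4.91 TPM in PBS and at 4.04 and 4.03 TPM in CS1, not past the test (-0.22, adjusted p = 0.0915). With quantile normalization it passed (-0.45, adjusted p = 0.00794), as it did without the variance trend (adjusted p = 0.0109), so that the number that fell was then 2. Ccnd1 and Epha2 did not pass (adjusted p = 0.072 and 0.599).

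Immediate early genes, the class to which Dusp1 belongs, were higher in 15 of 21 tested cases and lower in 2 (median 0.36), against 35.3% and 31.6% of all tested features. The 15 include Nr4a2, which was tested only through CS1 and could only be higher. Fosb had a log2 fold change of 1.14, Jund of 0.75 and Klf2 of 0.70. The 2 that fell, Nr4a1 (-0.53) and Btg1 (-0.25), were named after their values were seen. Dusp1 at 0.37 lay close to that list's median.

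Transcripts with the pattern most like a member's were sought for the members with the smallest p, Dusp6 and Dusp2, by Euclidean distance between centred log2(TPM + 1) values over the 4 libraries, among 9300 features of at least 5 TPM. Nearest to Dusp6 were Tnfrsf1b (distance 0.019), Slfn5 (0.021) and Msn (0.023), with log2 fold changes of -0.95, -0.96 and -0.93. Nearest to Dusp2 were Smtn (0.045), Wfdc21 (0.059) and Aldh6a1 (0.059), with log2 fold changes of 1.2, 1.27 and 1.2. Exons of Slfn5 and Aldh6a1 overlap Slfn5os and Bbof1 on the opposite strand. Slfn5os was listed at 0.01 TPM in each library. Bbof1 shares 1078 of the 5784 exon bases of Aldh6a1. It was at 0.30 and 0.19 TPM in PBS and at 2.55 and 2.48 TPM in CS1, the same direction as Aldh6a1. With 4 libraries in 2 groups such likeness reflects little more than an equal difference between the groups.

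Marker transcripts of several cell types also differed between the groups, and in bulk RNA fewer cells of a type cannot be told apart from less RNA per cell. Among all tested features 35.3% were called higher and 31.6% lower. All 8 markers of the leukaemia cells were present at 4.33 TPM or more in each library; Kit, Hoxa9 and Meis1 rose, and Ptprc (the CD45 gene), Itgam, Cd34, Spi1 and Csf1r fell. Of 3 tested macrophage markers 2 fell and the other, Vcam1, was higher but tested only through CS1, and the summed level of the 6 in the list was 811 to 817 TPM in PBS and 424 to 432 TPM in CS1, while C1qa, C1qb and C1qc were at most 0.84 TPM. Of 6 mature neutrophil markers 3 rose and 2 fell, with sums of 418 to 422 TPM in PBS and 1799 to 1815 TPM in CS1, mostly from Camp. All 5 tested dendritic cell markers were higher, 1 of them, Siglech, tested only through CS1 (sums of 230 to 232 and 444 to 448 TPM, mostly from Flt3). B cell markers fell in 4 of 5 tested cases (54.4 to 55.8 and 32.2 to 34.8 TPM). Of 2 tested NK cell markers Nkg7 rose and Gzma was lower but tested only through PBS (12.4 to 14.6 and 37.5 to 43.9 TPM), with Ncr1 at 0.01 TPM in CS1. Megakaryocyte markers gave 1 higher of 2 tested (4.55 to 5.50 and 7.41 to 9.73 TPM), with Pf4 and Ppbp at 0.01 TPM in all libraries, and erythroid markers 0 called of 1 tested (17.5 to 18.1 and 21.7 to 28.0 TPM). The erythroid marker tested, Hba-a1, was at 16.22 and 17.09 TPM in PBS and at 26.08 and 0.01 TPM in CS1. Hba-a2, not tested, was at 0.01 TPM in both PBS libraries and at 0.01 and 19.33 TPM in CS1. Stroma and endothelium had 1 lower of 2 tested. The part of these marker differences in the members' differences was not tested.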

How the data were processed

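The labels' titles gave the groups, PBS and CS1, with 2 libraries each. STAR and RSEM and the genome build mm10 are named in the submitters' processing notes, without versions. The deposited values were taken as TPM made by the authors: no header or label states the unit, which was inferred from decimals, from column sums of 977973 to 986345 and from the mention of RSEM. The lowest listed value, 0.01, stands where 0 would be expected. TPM keeps no read depth, so no counting interval can be given and depth is unknown, and as a share of the total it rises when abundant transcripts fall. The labels do not say whether libraries came from separate mice, and p-values thus cover only the spread among these libraries, possibly a technical one.

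Features reaching 1 TPM in 2 or more of the 4 libraries were tested on log2(TPM + 1) with limma 3.58.1 (R 4.3.3), variance trend on, two-sided, and p-values were adjusted by Benjamini-Hochberg over all 11866. Fold changes on this scale understate changes of low genes. An exact permutation test of 2 against 2 cannot go below p = 0.333 (two-sided). The procedure was tested on simulated data. Alternatives were another pseudocount, other filters, rescaling, no variance trend, a replicate block and leaving out each library. The members and gene lists were chosen with earlier results of these data known. Named genes were the members, the 3 genes of each list with the smallest p, any tested gene of the phosphatase, RAS brake and ERK output lists, and the nearest patterns to the 2 members with the smallest p; others are marked, and 1 gene that the rule takes is not reported here. Gene coordinates and exons are from GENCODE M21 (GRCm38, the assembly of mm10), promoters from RefSeq. The use of strand in counting is not given in the sources, so values of genes with overlapping exons are uncertain to that extent.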

Additional observations from a re-analysis of the deposited data

How the results depend on the processing

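The members kept 4 called lower in every alternative run. The number called higher was 4, except with the stricter filter of 5 TPM, where Spry1 was not tested and 3 were higher. In the sets that left out 1 library each, 8 members were called in every case, also without CS1 replicate 2, which 1 label names CS2. Dusp10 turned to -0.11 after quantile normalization and ranged from -0.15 to 0.38 when a library was left out. Nf1 turned to -0.13 after quantile normalization. Over all features 6676 to 6809 were called when 1 library was left out. The median log2 fold change of all tested features was 0.0402 as deposited, 0.0048 with trimmed-mean (TMM) scaling and -0.0052 after quantile normalization.

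List counts that moved by over 1.5 times were all small. RAS-ERK genes called higher, 2 as reported, were 1 with no filter, 0 with trimmed-mean scaling, 4 after quantile normalization, 0 with the variance trend off, 1 with the replicate block and 0 to 1 without 1 library. Atypical phosphatases called higher were 0 with no filter, 2 with the variance trend off and 0 to 2 without 1 library. With the stricter filter, other MAPK phosphatases called higher were 0, other RAS brakes 2 and ERK output genes 1. ERK output genes called lower were 2 after quantile normalization and with the variance trend off, and those called higher 1 to 2 without 1 library. p38 and JNK genes called higher were 3 to 6 without 1 library. The cause was not tested, other than the stricter filter testing fewer genes.

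No strong effect shared by replicate number was seen: the difference of PBS 1 and PBS 2 correlated with that of CS1 1 and CS1 2 at r = 0.0219 over 11866 features. Such a correlation over all features cannot show whether the samples were paired. The replicate block gave 7750 called features, against 7949 without it, and 8 members called. What depth limits could not be assessed, since TPM holds no counts.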
